A study of Mus musculus with 7 samples.

Results

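miR-143 and miR-145 are a pair of mature microRNAs (miRNAs) that are cut from a common primary transcript and are widely used to mark smooth muscle. They were found on the plate by assay name, without the species prefix, and 2 of the 316 assays matched, 1 for each miRNA. No star or other arm form of either was on the plate. The samples were wound edge tissue of C57Bl6 mice on day 3 after wounding, with 3 samples from ischemic wounds and 4 from non-ischemic wounds. Ischemic wounds were made within a bipedicle flap, in which a band of skin stays joined to the body by a pedicle at either end and the blood supply between them is reduced. The labels name no other treatment, genotype or age, and they do not say whether each sample came from a separate animal, so each p-value rests on the spread from sample to sample only, part of which may be technical.

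In vessels, miR-143 and miR-145 are known to hold smooth muscle cells in their contractile, differentiated state, and their transcription depends on serum response factor and its partner myocardin. miR-145 is known to act on Klf4 and Klf5, factors of the dedifferentiated state, and miR-143 on Elk1, a competitor of myocardin. In skin, smooth muscle lies in the walls of arterioles and in the arrector muscles of hair follicles, and pericytes and some fibroblasts also make these miRNAs. In bulk tissue such as this, fewer cells of a type and less RNA per cell cannot be told apart.

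miR-145 was detected late but in every sample, while miR-143 came later still and was detected in no sample at the limit used here. The measure is the threshold cycle (Ct), the PCR cycle at which product passes a set limit, so that a lower Ct is a higher level and 1 cycle is a doubling if amplification is perfect. A Ct below 35 was taken as detection. miR-145 had a Ct of 34.5, 34.4 and 33.6 in ischemic samples 1 to 3, against 34.7, 34.0, 34.1 and 34.1 in non-ischemic samples 1 to 4. The earliest Ct stood in ischemic sample 3 and the latest in non-ischemic sample 1, and the groups overlapped. miR-143 had a Ct of 35.2, 36.9 and 35.2 in ischemic samples 1 to 3, against 36.6, 36.0, 37.3 and 35.9 in non-ischemic samples 1 to 4. Ischemic samples 1 and 3 lay just beyond the limit of 35 and ahead of all non-ischemic samples, while ischemic sample 2 lay within the non-ischemic range. The limit decides how miR-143 is counted: 0 of 3 ischemic and 0 of 4 non-ischemic samples had a Ct below 35, 2 and 2 had one below 36, and 3 and 3 one below 37. For miR-145 the count was 3 of 3 and 4 of 4 at 35, and 1 of 3 and 0 of 4 at 34.

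**Figure D1:**
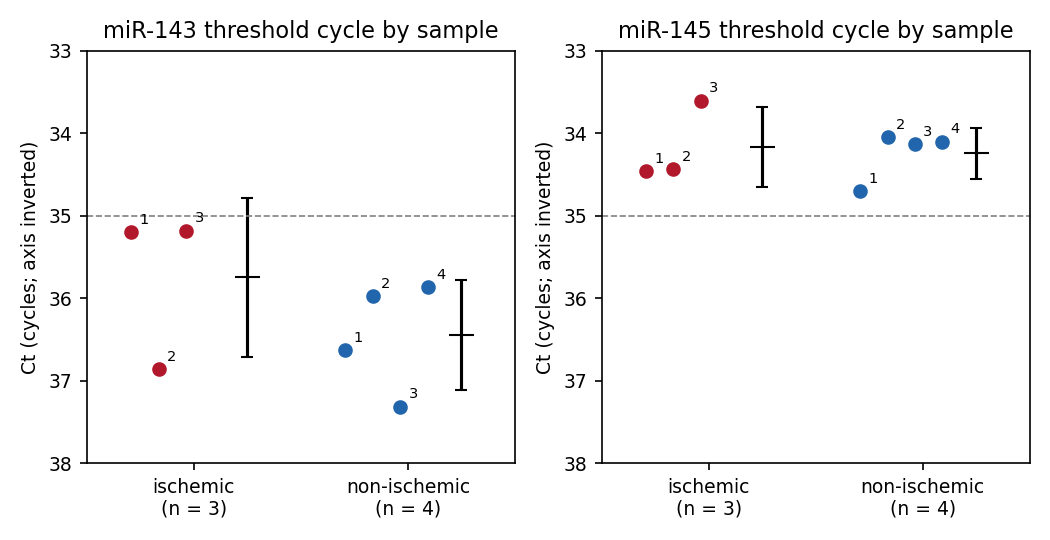
Ct in cycles of miR-143 (left) and miR-145 (right) in each ischemic and non-ischemic sample, on an inverted axis so that higher levels lie higher; numbers are sample numbers, bars are mean ± SD and the dashed line is the detection limit of 35. The groups overlap for both, and ischemic samples 1 and 3 have the earliest miR-143 values, at 35.2 each.

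Among the 306 miRNA assays ordered by mean Ct over the 7 samples, miR-145 was in place 85, with a mean of 34.2 cycles, and miR-143 in place 109, with 36.1. miR-145 therefore stood towards the late end of the 103 miRNAs detected in 3 or more samples, with 84 of them earlier. miR-143 came later than 102 of the 103. Assays differ in priming and amplification, so a place in this order is not an abundance. Within single samples miR-145 was in place 86, 89 and 68 in ischemic samples 1 to 3 and in places 82 to 102 in non-ischemic samples. miR-143 was in place 99, 134 and 95 in ischemic samples 1 to 3, against 112 to 123 in non-ischemic samples. Ischemic sample 3 thus held the foremost place of each miRNA. That sample stood apart from the rest, with a correlation of 0.756 to 0.830 with the other samples across the 76 miRNAs detected in all samples, against 0.908 to 0.977 among the others, a description over miRNAs, which are not replicates. The 3 leukocyte miRNAs, miR-223, miR-142-3p and miR-142-5p, summed to 145.03 to 4445 millionths of the 5S rRNA level in ischemic samples and 3093 to 4826 in non-ischemic samples, with the lowest sum in ischemic sample 3, and 0 of the 3 were at a Ct of 40 in all samples. Their part in the values of miR-143 and miR-145 was not tested.

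Levels are given below as the Ct of 5S rRNA, the authors' reference, minus the Ct of the assay, on a log2 scale on which a higher value is a higher level. 5S rRNA itself reached its threshold at 14.5 ± 0.062 cycles in the ischemic group, against 14.6 ± 0.15 in the non-ischemic group (SD, n = 3 and 4, exact permutation p = 0.257, two-sided). miR-145 had a level of -19.64 ± 0.51 in the ischemic group, against -19.60 ± 0.32 in the non-ischemic group (SD, n = 3 and 4). The ischemic minus non-ischemic difference was -0.04 ± 0.39 (SE) with a 95% interval of -0.93 to 0.85, and limma, fitted over those 103 miRNAs, gave an adjusted p of 0.954. The exact permutation p was 0.914 (two-sided). The interval holds changes of nearly 1 log2 unit either way, and the difference turned to a value above 0 under global mean, global median and quantile normalization, against snoRNA without snoRNA202 and on raw Ct. Over the whole plate limma called 0 of 103 miRNAs (0%) at an adjusted p of 0.05, while 19 (18.4%) had an unadjusted p under 0.05 and an unmoderated two-sample test called 1. Without ischemic sample 3 limma called 8 (7.77%), with miR-145 at -0.33 (adjusted p = 0.668).

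miR-143 had a level of -21.22 ± 1.02 in ischemic and -21.80 ± 0.70 in non-ischemic samples (SD, n = 3 and 4). The difference of 0.58 was 1.49-fold and smaller than the SD of either group (exact permutation p = 0.457, two-sided). Since no sample had a Ct below 35, miR-143 was not among the 103 tested miRNAs. With the limit moved to 37, a choice made after its Ct values were seen, 126 miRNAs were tested, and miR-143 was at 0.58 ± 0.60 (SE, 95% interval -0.81 to 1.96) with an adjusted p of 0.769 in limma, which called 0 of the 126 (0%). In the authors' deposited table, which averages linear ratios to 5S rRNA, the fold of ischemic over non-ischemic was 1.58 for miR-143 and 0.997 for miR-145. Single samples moved the size for miR-143. The difference was 1.17 when ischemic sample 2 was left out, and 0.28 when ischemic sample 1, ischemic sample 3 or non-ischemic sample 3 was.

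Against the plate as a whole, which leaned lower in ischemic samples, both miRNAs stood on the upper side. Over the 103 tested miRNAs the difference had a median of -0.35, with 24 higher and 79 lower. The lean towards lower was also seen against snoRNA (18 higher and 85 lower), against snoRNA without snoRNA202 (33 and 70) and on raw Ct (34 and 69), and less so without ischemic sample 3 (45 and 58). Scalings that centre each sample even it out by construction, with 50 and 53 after global mean, 52 and 51 after global median and 54 and 49 after quantile normalization. miR-145 had 25 tested miRNAs above it and 77 below, and only 3 had a smaller absolute difference. miR-143, set against the same 103, had 8 above it and 95 below.

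**Figure D2:**
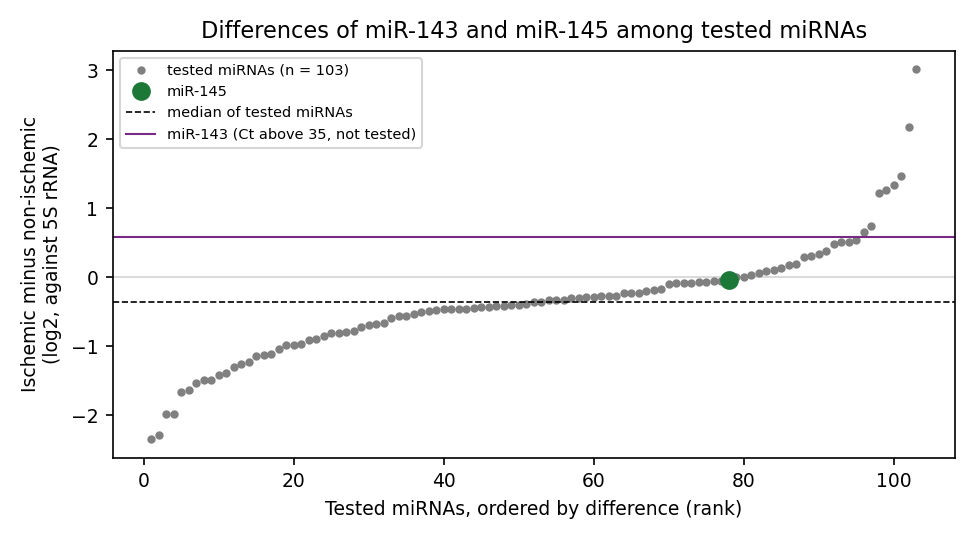
Ischemic minus non-ischemic difference in log2 level against 5S rRNA for the 103 tested miRNAs, in order from lowest to highest. The green point is miR-145 at -0.04, the purple line is miR-143 at 0.58, which was not tested, and the dashed line is the median of -0.35.

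A related but different measure was taken sample by sample, with each miRNA's level set against the median level of the tested miRNAs in that sample. This sample median differed by -0.58 between ischemic and non-ischemic samples (exact permutation p = 0.0857, n = 3 and 4, two-sided). That is a larger shift than the median difference of -0.35. On this relative scale miR-145 was at -2.28, -2.35 and -0.78 in ischemic samples 1 to 3, against -3.01, -1.96, -2.04 and -2.34 in non-ischemic samples 1 to 4. Only ischemic sample 3 lay above the non-ischemic range. The difference was 0.53 (exact permutation p = 0.514, n = 3 and 4, two-sided) and 0.02 without ischemic sample 3. miR-143 was at -3.03, -4.78 and -2.35 in ischemic samples 1 to 3, against -4.93, -3.89, -5.23 and -4.11 in non-ischemic samples 1 to 4. Ischemic samples 1 and 3 lay above all non-ischemic samples and ischemic sample 2 below non-ischemic samples 2 and 4. The difference was 1.16 (exact permutation p = 0.143, n = 3 and 4, two-sided). It was 1.85 without ischemic sample 2 (exact permutation p = 0.0667, the smallest that 2 against 4 samples allow) and 0.64 without ischemic sample 3 (exact permutation p = 0.400). The size also depended on which miRNAs gave the median. With only those below 35 in all 7 samples, the difference was 0.94 for miR-143 and 0.32 for miR-145 (exact permutation p = 0.257 and 0.543).

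Deviations from the non-ischemic mean show where each ischemic sample lay among all tested miRNAs. In ischemic sample 1, miR-143 deviated by 1.17 log2 units, where 4 of the 103 tested miRNAs deviated more upward, and miR-145 by -0.29, where 56 did. In ischemic sample 2, miR-143 deviated by -0.60 and miR-145 by -0.38, with 78 and 69 tested miRNAs above them. In ischemic sample 3, miR-143 deviated by 1.17 and miR-145 by 0.54, with 8 and 16 above them, while the median deviation of all tested miRNAs was -0.53. The pair was therefore high together in ischemic sample 3, low together in ischemic sample 2, and apart in ischemic sample 1.

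The gap between the miRNAs of the pair needs no reference RNA, since both Ct values come from the same sample. The Ct of miR-143 exceeded that of miR-145 by 0.75, 2.42 and 1.58 cycles in ischemic samples 1 to 3, against 1.92, 1.93, 3.19 and 1.76 cycles in non-ischemic samples 1 to 4. miR-145 came first in all 7 samples, by a margin that was narrowest in ischemic sample 1 and widest in non-ischemic sample 3. The mean gap was 1.58 ± 0.84 cycles in ischemic and 2.20 ± 0.66 in non-ischemic samples (SD, n = 3 and 4), and the groups overlapped. In levels, miR-143 relative to miR-145 was 0.62 log2 units higher in ischemic samples (exact permutation p = 0.400, two-sided). Leaving out ischemic sample 1 gave 0.20, ischemic sample 2 gave 1.04 and non-ischemic sample 3 gave 0.29.

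**Figure D3:**
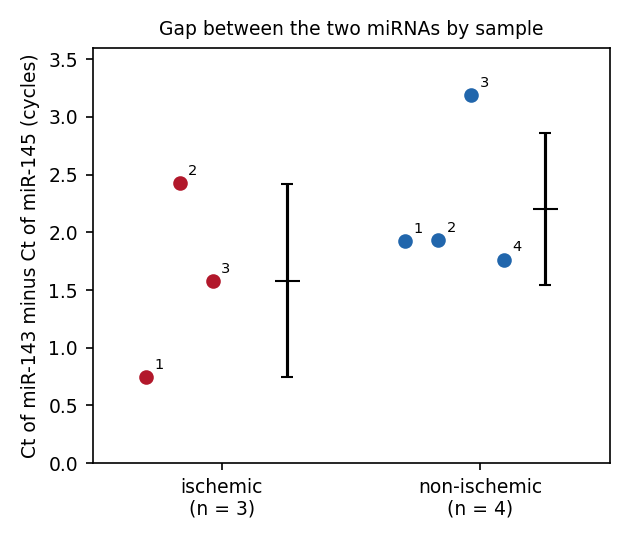
Ct of miR-143 minus Ct of miR-145 in cycles for each sample of the ischemic and non-ischemic groups, with sample numbers and mean ± SD. Ischemic sample 1 has the smallest gap, 0.75 cycles, and non-ischemic sample 3 the largest, 3.19 cycles.

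miR-145 varied little between samples for an assay of so late a Ct. Its SD within groups, pooled over both, was 0.41 log2 units, where the median of the tested miRNAs was 0.67 and 19 of the 103 had a smaller SD. Of the 14 other miRNAs whose mean Ct lay within 0.5 cycles of its own, 0 had a smaller SD, and theirs ran from 0.44 to 1.20. The differences of those 14 ran from -1.64 to 0.30, with 2 higher and 12 lower in ischemic samples, and 1 was smaller in size than that of miR-145. miR-143 had a pooled SD of 0.85 log2 units, and 78 of the 103 tested miRNAs had a smaller one. Of the 10 other miRNAs within 0.5 cycles of its mean Ct, 2 had a smaller SD and the SDs ran from 0.57 to 2.86. These neighbours in Ct were taken from all miRNA assays, whether tested or not. Each of the pair thus lay towards the narrow end of the spread seen at its Ct.

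**Figure D4:**
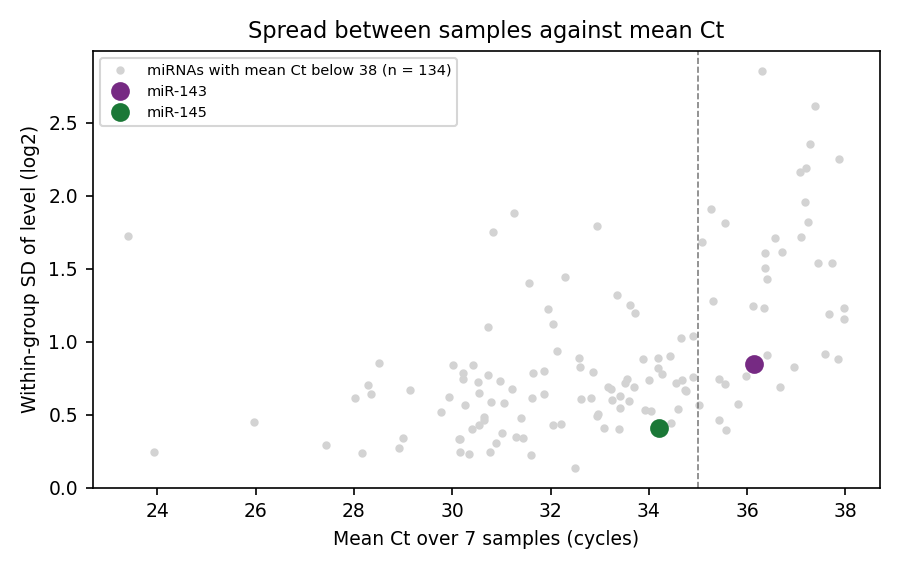
Pooled within-group SD of the log2 level against mean Ct in cycles for the 134 miRNAs with a mean Ct below 38; the dashed line marks a Ct of 35. miR-145 (green, SD 0.41) lies under the other miRNAs of its Ct, and miR-143 (purple, SD 0.85) near the lower edge of a wider cloud.

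The tested miRNAs with profiles nearest to the pair over the 7 samples were found by the root mean square difference of their levels after each miRNA's own mean was removed. For miR-145 these were miR-30a-3p at 0.18 log2 units, miR-30b at 0.24, miR-30c at 0.28, miR-150 at 0.30 and miR-26a at 0.30, where the median over 102 tested miRNAs was 0.79. For miR-143 they were miR-434-3p at 0.59, miR-30a-3p at 0.62, miR-145 at 0.69, miR-365 at 0.70 and miR-200c at 0.71, where the median over 103 was 1.06. miR-145 was thus the third nearest profile to miR-143, and 3 of the 5 nearest to miR-145 were forms of the miR-30 family. This measure is not scaled for spread, so a flat profile can rank as near without moving alike. Where miR-143 deviated by 1.17, its 5 neighbours ran from -0.58 to 0.36 in ischemic sample 1 and from -0.53 to 1.09 in ischemic sample 3. Those of miR-145, at 0.54 in ischemic sample 3, ran from -0.13 to 0.92 there. All profiles share the 5S rRNA value and the RNA of each sample, and the match is a description of 7 points. Mature sequences of mouse are shown for 4 of these miRNAs and for miR-221 and miR-222, taken up next, to show which of them share a seed, the bases 2 to 8 by which a miRNA pairs with its targets. They come from RefSeq (GRCm38.p6), the seed is in capitals, and names without an arm were matched to the guide strand.
miR-30a-3p: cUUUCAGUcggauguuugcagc
miR-30c: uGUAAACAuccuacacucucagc
miR-26a: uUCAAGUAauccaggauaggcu
miR-434-3p: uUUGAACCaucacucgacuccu
miR-221: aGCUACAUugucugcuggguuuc
miR-222: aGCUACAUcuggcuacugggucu
miR-30a-3p lies at chr1:23272315-23272336 on the plus strand, miR-30c at chr1:23291714-23291736 on the plus strand and chr4:120769584-120769606 on the minus strand, and miR-434-3p at chr12:109594565-109594586 on the plus strand. miR-26a lies at chr9:119031811-119031832 and chr10:126995543-126995564, both on the plus strand, and miR-221 and miR-222 at chrX:19146307-19146329 and chrX:19146901-19146923 on the minus strand. miR-30a-3p, the passenger strand of its hairpin, does not have the seed of miR-30c, whereas miR-221 and miR-222 have the same seed.

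**Figure D5:**
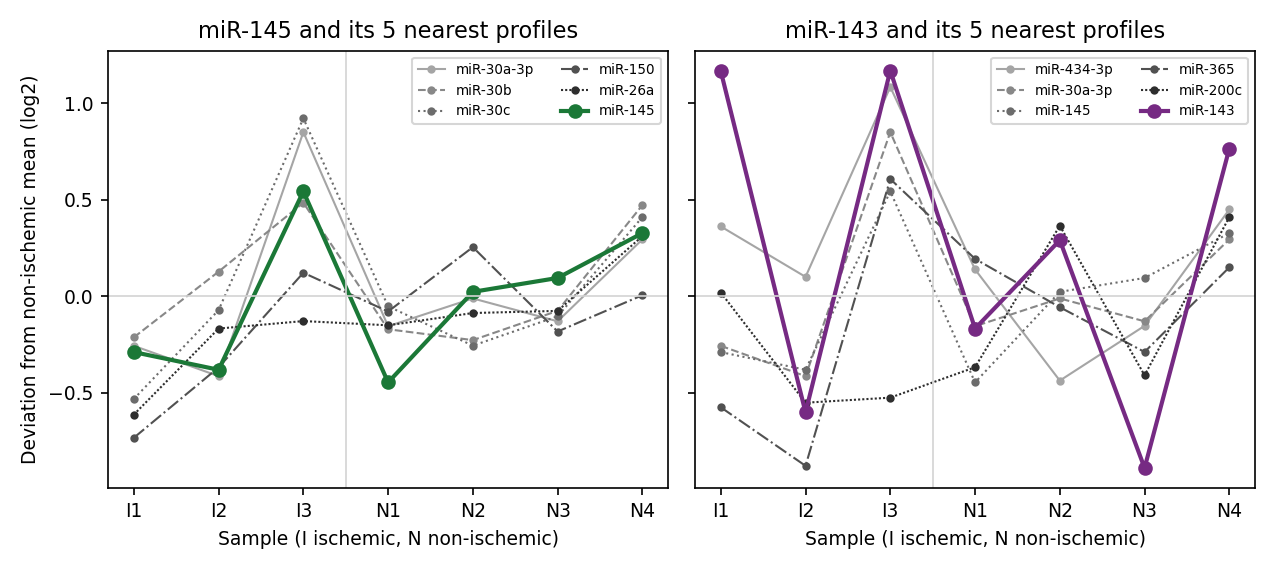
Deviation in log2 level from the non-ischemic mean in each sample (I ischemic, N non-ischemic) for miR-145 (left, green) and miR-143 (right, purple) with the 5 tested miRNAs nearest to each in grey. miR-145, miR-30a-3p, miR-30b and miR-30c all have their highest value in ischemic sample 3 (0.54, 0.85, 0.49 and 0.92), and miR-143 swings more widely than its neighbours.

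Other miRNAs known from vascular smooth muscle were listed by role. The contractile list holds the pair with miR-1, miR-133a and miR-133b, which are miRNAs of striated muscle above all. Of its 5 members 4 were tested, 3 had a higher mean in ischemic samples and miR-145 a lower one (-0.04), with its sign turned under the scalings named above, and 0 passed an adjusted p of 0.05 in limma. The list was written with miR-1 and miR-133a already known to lead earlier results of these data, so its counts are a description only. At an unadjusted p under 0.05 there were 3 higher, which are themselves among the 5 of 103 (4.85%) on the whole plate. Without ischemic sample 3 only miR-133a of the list was under it (unadjusted p = 0.0498 in limma, beside 0.0521 for miR-1 and 0.0812 for miR-133b), and the list median was 0.75 in place of 1.28. miR-1 deviated from the non-ischemic mean by 0.32, 1.59 and 2.48 log2 units in ischemic samples 1 to 3, against -0.24 to 0.18 in non-ischemic samples, and miR-133a by 0.66, 0.89 and 2.48, against -0.28 to 0.14. These, and miR-133b, did not overlap between groups, as was so for 18 of the 103 tested miRNAs (17.5%). The 4 skeletal muscle miRNAs summed to 241 to 875 millionths of the 5S rRNA level in ischemic samples and 159 to 212 in non-ischemic samples. The smooth muscle pair summed to 1.15 to 2.46 and 1.17 to 2.05 millionths on the same scale, on which assays differ in efficiency. The fourth, miR-206, a miRNA of regenerating muscle, overlapped between groups, with deviations of -0.63, 1.002 and 0.64 log2 units in ischemic samples 1 to 3, against -0.37 to 0.54 in non-ischemic samples, and a difference of 0.34 ± 0.48 (SE). The skeletal muscle sum of every ischemic sample lay above all non-ischemic samples, while the ranges of the smooth muscle sum overlapped. Whether the pair differed from the skeletal muscle miRNAs in its response was not tested.

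The proliferative list holds miRNAs known to favour growth and dedifferentiation of smooth muscle cells. All 7 were tested and had a lower mean in ischemic samples against 5S rRNA, with a median of -0.30, beside -0.35 over all tested miRNAs, while 4 of the 7 were higher after global mean and global median normalization, 2 after quantile normalization, and 1 on raw Ct and against snoRNA without snoRNA202. On the whole plate 79 of the 103 tested miRNAs had a lower mean against 5S rRNA. None of the 7 passed an adjusted p of 0.05 in limma, and 1 was lower at an unadjusted p under 0.05, miR-31. On the whole plate 14 of 103 (13.6%) were lower at that p. The list was written with miR-31 already known to lead earlier results of these data. After global mean normalization the higher ones were miR-221, miR-222, miR-24 and miR-26a, and without ischemic sample 3 the higher ones were miR-21, miR-221 and miR-222. miR-31, which is also a miRNA of wound keratinocytes, was at -2.28 ± 0.71 (SE, adjusted p = 0.189 in limma) and -1.36 without ischemic sample 3. miR-146a, a brake on inflammatory signalling, was at -0.78 ± 0.37 and miR-21, which is induced in wounds, at -0.46 ± 0.77. miR-26a, known to oppose smooth muscle differentiation through Smad1, was at -0.30 ± 0.34, and miR-24, which restrains Trib3 downstream of platelet-derived growth factor, at -0.28 ± 0.35. miR-222 and miR-221, which act on the receptor Kit and the cell cycle inhibitor p27, were at -0.30 ± 0.45 and -0.07 ± 0.49. For these 5, from miR-21 to miR-221, the difference was smaller than its SE.

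Other miRNAs of the vessel wall and of fibroblasts gave no call either. miR-126, the endothelial miRNA that sustains signalling by vascular endothelial growth factor, deviated by -0.91, -0.08 and -0.37 log2 units in ischemic samples 1 to 3, against -0.38 to 0.22 in non-ischemic samples, with a difference of -0.46 ± 0.37 (SE, adjusted p = 0.620 in limma). Its lowest value was in ischemic sample 1, where miR-145 lay at -0.29 and miR-143 at 1.17. The star form miR-126*, which the vessel list holds under its other name miR-126-5p, was also tested. It had a difference of -0.06 ± 0.54 (SE, adjusted p = 0.954 in limma). miR-214, a miRNA of fibroblasts and other mesenchymal cells, deviated by -2.44, -0.20 and -1.94 in ischemic samples 1 to 3, against -0.41 to 0.36 in non-ischemic samples, with a difference of -1.53 ± 0.55 (adjusted p = 0.219 in limma). Ischemic samples 1 and 3 were low for miR-214 and high for miR-143. The other fibroblast miRNAs of the list, miR-199a and miR-199b, had mean Ct values of 39.5 and 38.0 and were not tested. The star form miR-199a* was on the plate but not in the list. It came earlier, at a mean Ct of 35.4, with a difference of -1.05 and a pooled SD of 0.47, and was not tested either. In the keratinocyte list, which checks the labelled tissue, 5 of 7 members were detected well enough to be tested, as were 3 of 3 leukocyte and 2 of 2 erythroid miRNAs, and 0 of these passed an adjusted p of 0.05 in limma with all 7 samples against 5S rRNA. On that scale the 5 keratinocyte and 3 leukocyte miRNAs had a lower mean in ischemic samples, as did 79 of 103 on the whole plate. The 2 erythroid miRNAs had a higher mean, as did 24 of 103. Without ischemic sample 3, 2 keratinocyte and 1 erythroid miRNA passed, among 8 of 103 (7.77%) on the whole plate. The 3 leukocyte miRNAs and 1 of the 5 keratinocyte miRNAs then had a higher mean. After global median and after quantile normalization 1 erythroid miRNA passed, the only 1 of the 103 that did.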

How the data were processed

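Mature miRNAs of 7 wound edge samples were measured by real-time PCR. Per the labels' protocols, 500 ng of miRVana RNA was reverse transcribed with pooled looped primers and read in plates of 384 wells; the program used to set the Ct is not stated per the labels. The authors deposited the raw Ct, treated here as a score, of 316 assays (306 miRNAs, 9 control RNAs, 1 fly assay, which was left out), with 40 for no product. They also deposited a log2 delta Ct, which matched 5S rRNA Ct minus assay Ct within 0.0001 cycles for 315 assays (18S has the opposite sign), a linear ratio to 5S rRNA, and group means of that ratio with their fold. A further 7 columns that repeat 5S rRNA were not used.

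Groups and numbers came from the sample titles. From 91 to 106 miRNAs per sample had a Ct below 35. Levels were fitted in R 4.3.3 with limma 3.58.1 (two-sided, Benjamini-Hochberg), and single values with exact permutation tests of the absolute difference in means (scipy 1.17.1). No count of molecules is behind a Ct, so precision is the spread between samples. Named were the pair, the 5 nearest profiles to each, the smooth muscle and vessel lists, and up to 4 of each other list by smallest p; not all of these are described. Members and lists were chosen with earlier results of these data known. Of 10 assays looked up for sequences, 6 had an entry, and miR-143 and miR-145 were among those without one. Alternatives were other normalizations, Ct limits, variance models and the linear scale, and samples left out. The limma step was tested on simulated data. Same-numbered samples of the 2 groups did not deviate together, with correlations of 0.03, -0.21 and -0.07 across 76 miRNAs, so numbers were not taken as pairs.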

Additional observations from a re-analysis of the deposited data

Results flagged for a closer look

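Of 33 quantities checked in the 4 non-ischemic samples, 3 had 1 sample far from the other 3, where chance gives about 1 in 20 groups. The gap in Ct between miR-143 and miR-145 was 3.19 cycles in non-ischemic sample 3, and the distance to the nearest of the others was 0.880 of the whole range. That sample had the latest miR-143 Ct of all 7, at 37.3, with miR-145 at 34.1. For miR-26a, a near profile of miR-145, the share was 0.838, with non-ischemic sample 4 at 0.31 log2 units above the group mean. For the leukocyte miRNA miR-223 it was 0.982, with the same sample at 0.47.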

How the results depend on the processing

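miR-145 crossed 0 under many settings and passed the threshold under none of those run: 0.29 after global mean, 0.32 after global median and 0.54 after quantile normalization, 0.053 against snoRNA without snoRNA202, 0.080 on raw Ct and 0.067 with the replicate block, while samples left out in turn gave -0.33 to 0.13. Its adjusted p in limma ran from 0.580 to 0.996. miR-143 stayed above 0 in 20 of 21 alternatives, and was at -0.12 with late Ct set to 35, which puts all its values at the limit. The other Ct filters and the variance models could not move its difference, which stayed at 0.58. Samples left out gave 0.28 to 1.17, and its exact permutation p ran from 0.133 to 0.800. The gap of the pair likewise turned to -0.080 with late Ct set to 35, and ran from 0.20 to 1.04 over samples left out. Relative to the sample median, miR-143 and miR-145 were above 0 in all 21 alternatives, from 0.45 to 1.85 and from 0.02 to 0.81. Part of that count was fixed in advance. Global mean, global median, snoRNA and raw Ct scalings cancel against the sample median, and variance models do not touch it. All of these gave the same 1.16 and 0.53. The count of miRNAs called was 1 after global median, after quantile normalization and with the unmoderated test, and 0 to 8 over samples left out. The count at an unadjusted p under 0.05 was 7 with the replicate block and 10 to 21 over samples left out. The median difference of tested miRNAs was 0.0048 after global median and 0.032 after quantile normalization. The median of the 2 smooth muscle lists together, -0.28 against 5S rRNA, was 0.056 after global mean, 0.080 after global median, 0.051 after quantile normalization, -0.0050 on the linear scale and -0.33 to 0.14 over samples left out. The cause of these moves was not tested. With the replicate block the difference of miR-143 was 0.83. Ct values near or beyond 35 limit the precision of both miRNAs.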
